A study of Mus musculus with 12 samples.

Results

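The voltage-gated calcium and sodium channel genes were taken by name, as every gene whose symbol began with Cacna, Cacnb or Cacng, or with Scn followed by a number and the letter a or b. By this rule 39 of the 24318 genes in the gene table were channel genes. Their names alone decided membership, but the rule was set with earlier results of these data known. In the junction table, 68 of 7025 intervals lay in channel genes, and these came from 14 of the 2948 host genes listed. The main sodium channel pore of the adult forebrain, Scn2a, appeared under its older symbol Scn2a1, which the rule does not match, so its values are given beside the members and not counted with them.

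Hippocampal RNA came from wild-type (WT) and 5xFAD mice aged 7 months. The 5xFAD strain carries human transgenes of familial Alzheimer's disease, APP among them, which regulatory sequence of Thy1 drives in neurons. The 12 samples formed 4 groups of 3, WT and 5xFAD under each of the title prefixes CG and AT, and the labels do not say whether samples of a group were separate animals, so p-values measure only the spread between these samples. The CG libraries gave FPKM per gene (fragments scaled by transcript length and library size). The AT libraries gave a normalized signal per interval, and each interval was read as a back-splice junction, the join that closes a circular RNA, because the design text names an A-tailing and RNase R preparation, which enriches circles.

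Depth in reads was unknown for the CG libraries, whose relative depth, read from the lowest FPKM values, lay between 0.796 and 1.16 where WT replicate 1 is 1. Recovered reads numbered 191408 to 695539 per AT library, and 5xFAD replicate 1 was the shallowest. Thy1, whose regulatory sequence is part of the transgenes, stood at 296, 308 and 340 FPKM in WT and at 1136 and 1172 FPKM in 5xFAD replicates 1 and 2. It was at 305 FPKM in the library labelled 5xFAD replicate 3, within the WT range. Summed microglial markers were likewise at 501 and 443 FPKM in the first pair and at 88.6 FPKM in that library, against 87.8 to 100.5 FPKM in WT. That library went against its label, so differences in CG are given with the 6 libraries and then for the 5 without it. The AT libraries could not be checked in this way, and the labels do not say whether AT and CG libraries share animals. Summed markers of excitatory neurons held 1335 to 1540 FPKM, while markers of peripheral sensory neurons summed to 0.686 to 1.44 FPKM.

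Voltage-gated channels open when the membrane depolarizes. Sodium channels carry the upstroke of the action potential along the axon, and calcium channels turn that signal into calcium entry at presynaptic terminals, dendrites and the cell body. Each calcium channel has a pore (an alpha1 subunit), which sets its class. Channels of L, P/Q, N and R class also have an extracellular alpha2delta subunit that helps them reach the membrane, and an intracellular beta subunit. The genes named as gamma subunits mostly encode transmembrane partners of AMPA-type glutamate receptors, and sodium channel beta subunits are single-pass adhesion-like proteins that tune and anchor the sodium pores.

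Of the 39 channel genes, 31 had a mean of at least 0.5 FPKM and were tested, and 24 of them had a mean of at least 10 FPKM. Levels are given singly for 29 of the 31. Of these 29, Cacng8, an AMPA receptor partner enriched in hippocampus, was highest at 99.9 to 159 FPKM over the 6 libraries, and Cacna1e, the R-type calcium pore, came next at 68.1 to 84.9 FPKM. In the order of all 39 channel genes, neighbours mostly overlapped over the 6 libraries. Breaks that no library of any gene crossed lay after Cacng8 and after Cacng5, so the lowest value of Cacng8 was above the highest of Cacna1e and of every gene after it in this order.

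**Figure D1:**
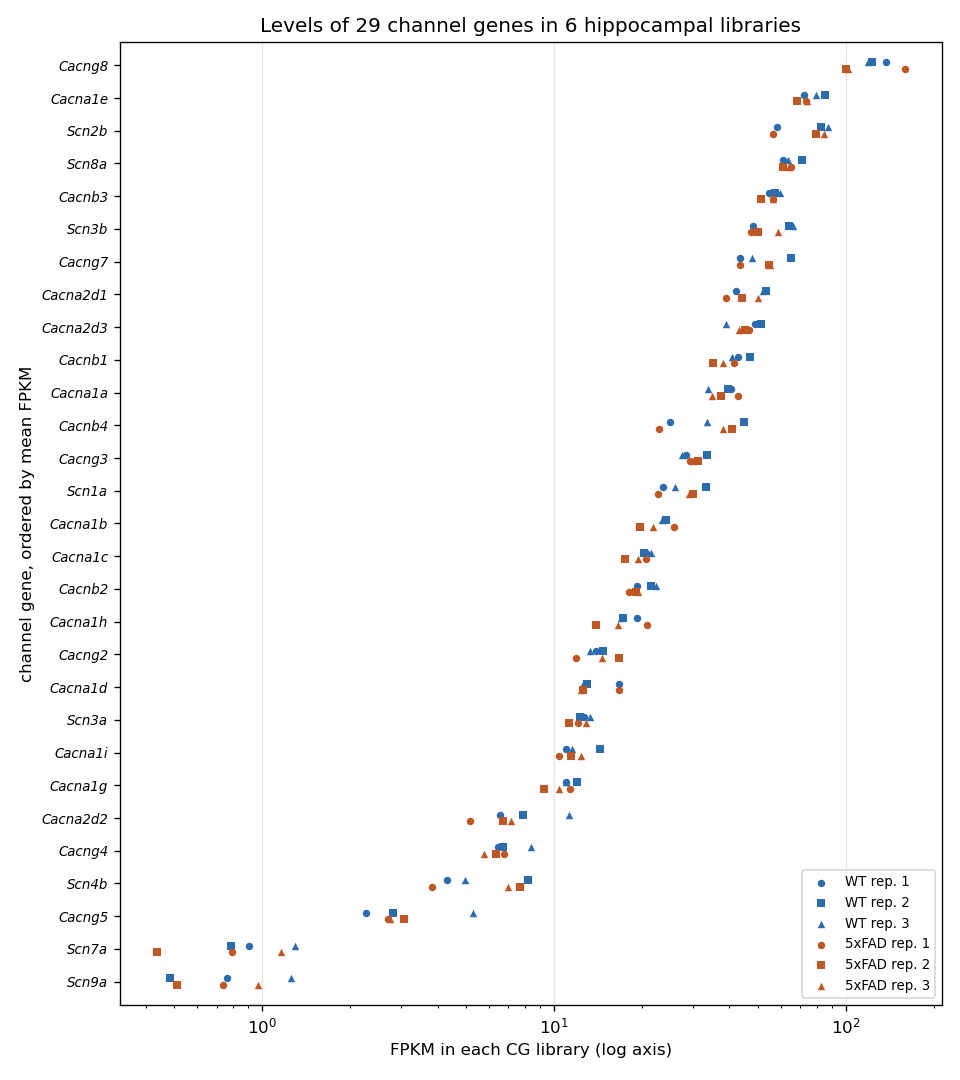
FPKM of 29 tested channel genes (log axis) in each of the 6 CG libraries, ordered by mean. Points are single libraries, blue for WT and orange for libraries labelled 5xFAD, and within most genes the colours lie among each other.

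Among the calcium pores, levels were spread over several classes. Cacna1e held 33.0% to 37.8% of the FPKM summed over calcium pores, and Cacna1a, the P/Q-type pore of fast transmitter release, held 16.0% to 19.7%. Cacna1b, the N-type pore, held 10.4% to 11.6%, and the L-type pores Cacna1c and Cacna1d held 9.03% to 10.2% and 5.75% to 7.78%. Of the T-type pores, which open near rest and support burst firing, Cacna1h was at 14.0 to 20.9 FPKM, above the L-type pore Cacna1d in every library. Cacna1i was at 10.4 to 14.4 FPKM, and Cacna1g was at 11.4 ± 0.606 FPKM in WT (SD, n = 3). Cacna1s, the pore of skeletal muscle, did not pass 0.122 FPKM, and Cacna1f, the pore of photoreceptor synapses, did not pass 0.0744 FPKM.

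Of the auxiliary calcium channel subunits, Cacna2d1 and Cacna2d3 were near each other in level, at 38.8 to 53.5 and 38.9 to 51.2 FPKM. Together they made up nearly the whole alpha2delta level, since Cacna2d2 was at 5.17 to 11.2 FPKM and Cacna2d4, known from the retina, was at 0.169 to 0.377 FPKM. All 4 beta subunits were present, with Cacnb3 at 33.4% to 40.6% of their summed FPKM, Cacnb1 at 24.1% to 30.2%, Cacnb4 at 16.6% to 27.9% and Cacnb2 at 12.6% to 14.4%. Within the gamma family Cacng8 held 47.1% to 62.7%, Cacng7 17.2% to 26.5% and Cacng3 11.5% to 14.7%. Cacng2, the AMPA receptor partner known as stargazin, was at 14.0 ± 0.724 FPKM in WT (SD, n = 3). Cacng1 and Cacng6, the family members of skeletal muscle, were listed at 0 in every WT library and reached 0.147 and 0.261 FPKM in 5xFAD replicate 1.

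Sodium pore RNA was held mostly by a pair of genes. With Scn2a1 counted, Scn2a1 held 38.2% to 43.2% of the summed sodium pore FPKM and Scn8a, the pore of the axon initial segment and nodes, held 33.5% to 39.6%. Scn1a, the pore of many inhibitory neurons, held 13.8% to 17.0%, and Scn3a, best known from the embryonic brain, held at most 7.51%. Scn7a and Scn9a ranged from 0.439 to 1.30 FPKM. Scn4a of skeletal muscle and Scn10a and Scn11a of sensory neurons stayed at or below 0.033 FPKM. These last 3 were 3 of the 8 channel genes below the filter, with Cacna2d4, Cacna1s, Cacna1f, Cacng1 and Cacng6.

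The comparison of genotypes asked whether 5xFAD hippocampus differed from WT in channel RNA. None of the 31 tested channel genes passed limma's test at an adjusted p under 0.05, with the 6 libraries or without the library labelled 5xFAD replicate 3, and none reached an unadjusted p under 0.05 in either fit. Over all genes tested with 6 libraries, 1 of 14500 passed (0.0069%) and 2.92% had an unadjusted p under 0.05. Without that library, 174 of 14527 passed (1.2%) and 5.91% had an unadjusted p under 0.05. The smallest limma adjusted p of a channel gene was 1.00 with 6 libraries and 0.998 without that library.

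**Figure D2:**
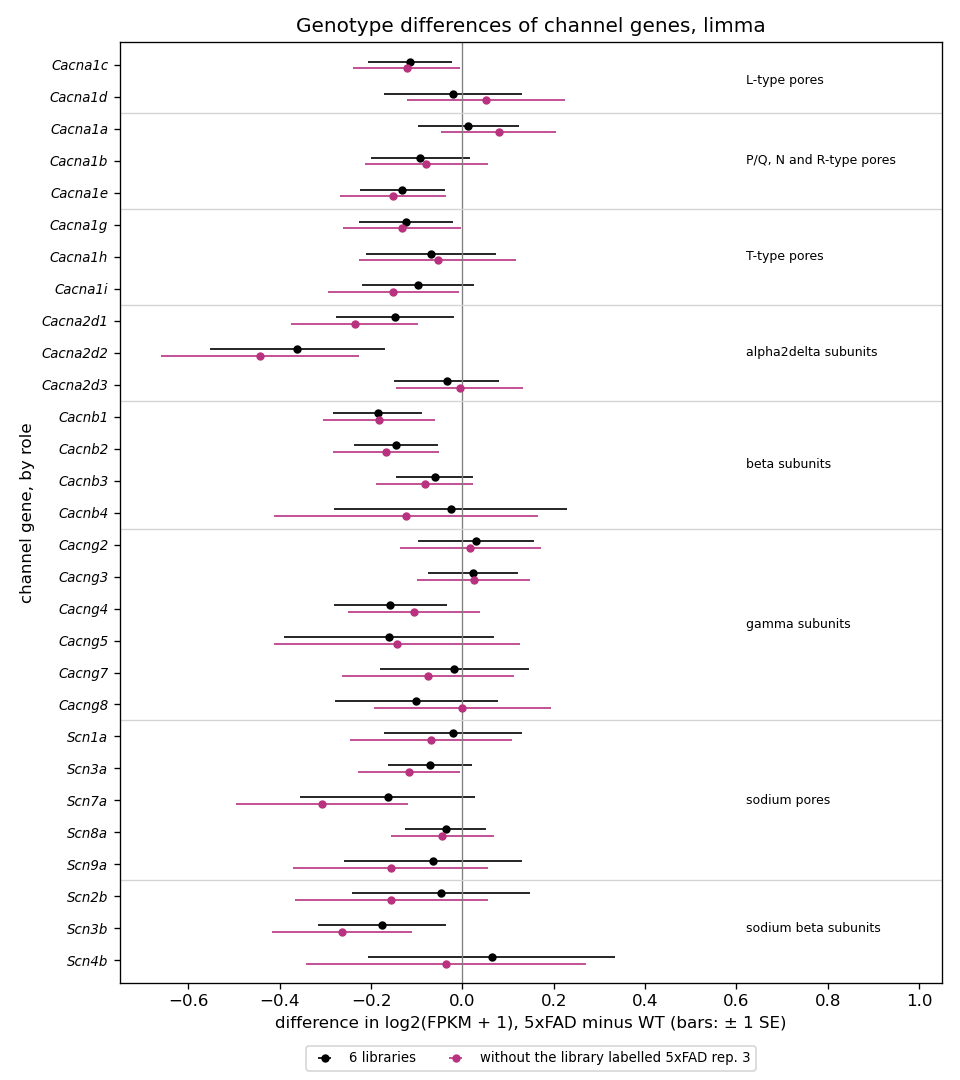
Difference in log2(FPKM + 1), 5xFAD minus WT, of 29 tested channel genes by role, with bars of 1 standard error, from limma with 6 libraries (black) and without the library labelled 5xFAD replicate 3 (magenta). Most points lie left of 0, between -0.36 and 0.06 with 6 libraries, and no gene passed the test.

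The differences of the channel genes were small and mostly below 0. With 6 libraries, 26 of 31 channel genes had a lower mean in 5xFAD, against 54.2% of all genes tested. Their median difference in log2(FPKM + 1) was -0.07, against -0.01 over all genes, and single differences ran from -0.36 to 0.06. Leaving out WT replicate 2 made the count 19 lower and 12 higher. Without the library labelled 5xFAD replicate 3, 26 of 31 were again lower and the median was -0.12, against -0.02 over all genes. These counts and medians describe the channel genes and carry no test. The 95% confidence intervals of single channel genes with 6 libraries lay between -0.88 and 0.69, with a median half-width of 0.29. A smaller difference in a channel gene would mostly not reach an unadjusted p under 0.05 in limma. The adjusted threshold over all genes tested is stricter, so larger differences could be missed too. Summed markers of cell types are given beside these differences and carry no test. With 6 libraries the sums of inhibitory neurons, astrocytes and oligodendrocytes overlapped between genotypes. The 8 markers of inhibitory neurons summed to 474 and 479 FPKM in 5xFAD replicates 1 and 2, to 594 FPKM in the library labelled 5xFAD replicate 3 and to 558 to 644 FPKM in WT. In those first 2 libraries 3 of the 8 lay below every WT library, and none lay above. Over all genes tested with the 5 libraries, 7.5% lay below and 10.6% above. The 6 astrocyte markers summed to 1397, 1493 and 1067 FPKM in 5xFAD and to 881 to 1150 FPKM in WT. Of these sums, 1 marker alone held 589, 449 and 106 FPKM in 5xFAD and 95.9 to 118 FPKM in WT. In replicates 1 and 2, 3 of the 6 lay above every WT library. So did all 5 oligodendrocyte markers and all 7 microglial markers. The oligodendrocyte markers summed to 1851, 1852 and 1487 FPKM in 5xFAD and to 1507 to 1673 FPKM in WT. The 9 markers of excitatory neurons overlapped, at 1335 to 1425 FPKM in 5xFAD and 1339 to 1540 FPKM in WT, and none was at 0. The part of these markers in the differences of the channel genes was not tested. In bulk tissue, fewer cells of a type and less RNA per cell cannot be told apart.

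The difference farthest from 0 was that of the alpha2delta subunit Cacna2d2, a binding target of gabapentin. It was at 6.57, 7.86 and 11.2 FPKM in WT and at 5.17, 6.69 and 7.16 FPKM in 5xFAD. WT replicate 3 was the high library and the groups overlapped. The difference was -0.36 (SE 0.19, limma unadjusted p = 0.096), and -0.17 without WT replicate 3. With 5 libraries it was -0.44 (SE 0.22). Its relative Cacna2d1, also bound by gabapentin, was at 42.1, 53.5 and 51.9 FPKM in WT and at 38.8, 44.2 and 49.9 FPKM in 5xFAD, with a difference of -0.15 (SE 0.13), or -0.24 with 5 libraries. Cacna2d3 was at 49.1, 51.2 and 38.9 FPKM in WT and at 46.7, 45.1 and 43.2 FPKM in 5xFAD. Its values overlapped closely, and its difference was -0.03 with a 95% interval from -0.30 to 0.23, or -0.01 with 5 libraries.

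Among the beta subunits, Cacnb1 was at 42.8, 47.2 and 40.9 FPKM in WT and at 41.5, 35.3 and 38.1 FPKM in 5xFAD. Its lowest WT library lay below its highest 5xFAD library, and the difference was -0.19 (SE 0.10, limma unadjusted p = 0.094), and -0.18 with 5 libraries. Cacnb2 was at 19.2, 21.5 and 22.5 FPKM in WT and at 18.0, 19.2 and 19.5 FPKM in 5xFAD. 5xFAD replicates 1 and 2 lay below every WT library, the second of them narrowly, and the library labelled 5xFAD replicate 3 lay inside the WT range. Cacnb3, the most abundant beta subunit, had a difference of -0.06 (SE 0.08).

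The tested calcium pores differed by at most -0.13 with 6 libraries. Cacna1e was at 71.9, 84.9 and 79.3 FPKM in WT and at 73.1, 68.1 and 73.7 FPKM in 5xFAD, with a difference of -0.13 and a 95% interval from -0.34 to 0.08, or -0.15 with 5 libraries. WT replicate 1 lay below all but 1 of the 5xFAD libraries. Cacna1a was at 40.4, 39.7 and 33.7 FPKM in WT and at 42.6, 37.5 and 34.7 FPKM in 5xFAD, and with 6 libraries it was the only tested calcium pore with a difference above 0, of 0.01 (SE 0.11). With 5 libraries its difference was 0.08 and that of Cacna1d was 0.05.

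The sodium pore Scn8a was at 61.0, 70.7 and 63.4 FPKM in WT and at 65.1, 60.8 and 64.0 FPKM in 5xFAD. The groups overlapped and the difference of -0.04 had a 95% interval from -0.24 to 0.17, and was the same with 5 libraries. Scn2a1, outside the rule, was at 68.9, 87.3 and 78.1 FPKM in WT and at 62.8, 72.8 and 82.6 FPKM in 5xFAD, with a difference of -0.10 (SE 0.13), or -0.20 with 5 libraries.

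Groups without overlap were few among the tested channel genes. With 6 libraries, 1 of 31, lower in 5xFAD, had no overlap, against 5.66% of all genes tested in either direction and 2.74% downward. Without the library labelled 5xFAD replicate 3, 3 of 31, all lower and Cacnb2 and Scn3a among them, had none, against 18.1% of all genes in either direction and 7.5% downward. Below the filter, Cacna2d4 was at 0.295, 0.242 and 0.169 FPKM in WT and at 0.357, 0.377 and 0.343 FPKM in 5xFAD, all higher. Cacna1s also separated upward, at most at 0.0599 FPKM in WT and at least at 0.0829 FPKM in 5xFAD. Both were below the filter on low values. With no filter, none of the 39 channel genes had an unadjusted p under 0.05 in limma with 6 libraries, against 3.25% of all genes. With 5 libraries Cacng6 alone did, with a difference of 0.26 (SE 0.06, adjusted p = 0.267), against 6.25% of all genes. WT replicate 3 was the highest of the 6 libraries in Cacna2d2, Cacng4, Cacng5, Scn7a and Scn9a, which were all under 10 FPKM in the other WT libraries. It was also the highest in genes of higher level, such as Scn2b, Scn3b and Cacnb3. How many of all genes tested were highest in that library was not counted.

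Genes that work with these channels were counted in the same way. None of 13 tested sodium channel partners passed limma's test with 6 libraries, with 3 higher, 10 lower and a median of -0.05. None of 19 tested calcium channel partners passed either, with a median of -0.07. In limma 2 of them had an unadjusted p under 0.05, against 2.92% of all genes tested. These 2, described next, were picked for their p-values. Thbs2, which encodes a thrombospondin, a class of secreted proteins that bind alpha2delta subunits, was at 1.39, 0.979 and 1.19 FPKM in WT and at 1.81, 1.83 and 1.81 FPKM in 5xFAD, a difference of 0.37 (SE 0.13). It was higher in every 5xFAD library, the library labelled replicate 3 included, as were 2.92% of all genes tested. Rem2, a small GTPase that inhibits calcium channels through the beta subunit, was at 5.89, 7.43 and 6.66 FPKM in WT and at 5.98, 4.43 and 5.03 FPKM in 5xFAD, a difference of -0.32 (SE 0.13). None of 20 tested genes of calcium release and clearance passed, and their median was -0.08. With 5 libraries none of the 3 lists had a call. Thbs2 alone had an unadjusted p under 0.05 (limma adjusted p = 0.810), against 5.91% of all genes tested.

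The replicate number went with a shift in many genes of the whole table, and channel genes are described here as part of it. The libraries numbered 1, WT and 5xFAD alike, lay together outside the range of the other 4 libraries in 14 of 31 channel genes. Over all genes tested it was seen in 5573 of 14500 (38.4%), a share near the 45.2% of the channel genes, so it is not particular to them. In 10 channel genes both libraries were below the others (Scn2b, Scn3b, Scn1a, Scn4b, Cacng7, Cacng5, Cacna2d1, Cacna2d2, Cacnb4 and Cacna1i), and in 4 they were above (Cacng8, Cacna1a, Cacna1h and Cacna1d). The labels give no batch, sex or date that would say what the number stands for.

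The 3 largest shifts downward were in auxiliary subunits. Cacnb4, the beta subunit mutated in the lethargic mouse, was at 25.1 and 23.0 FPKM in the libraries numbered 1 (WT, then 5xFAD) and at 44.9, 33.4, 40.8 and 37.9 FPKM in the others. The mean of log2(FPKM + 1) was lower by 0.68 in the libraries numbered 1, while the genotype difference of this gene was -0.03. Scn4b, which lends resurgent current to sodium channels, was at 4.31 and 3.82 FPKM against 8.18, 4.98, 7.68 and 6.96 FPKM. Scn2b, which binds the sodium pore covalently, was at 58.0 and 56.4 FPKM against 82.4, 86.8, 79.3 and 84.2 FPKM, lower in both genotypes. Cacng8 moved the other way, at 137 and 159 FPKM against 123, 119, 99.9 and 102 FPKM. Cacna1d, an L-type pore that opens at low voltage, was at 16.8 FPKM in both libraries numbered 1 and at 12.4 to 13.0 FPKM in the others.

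**Figure D3:**
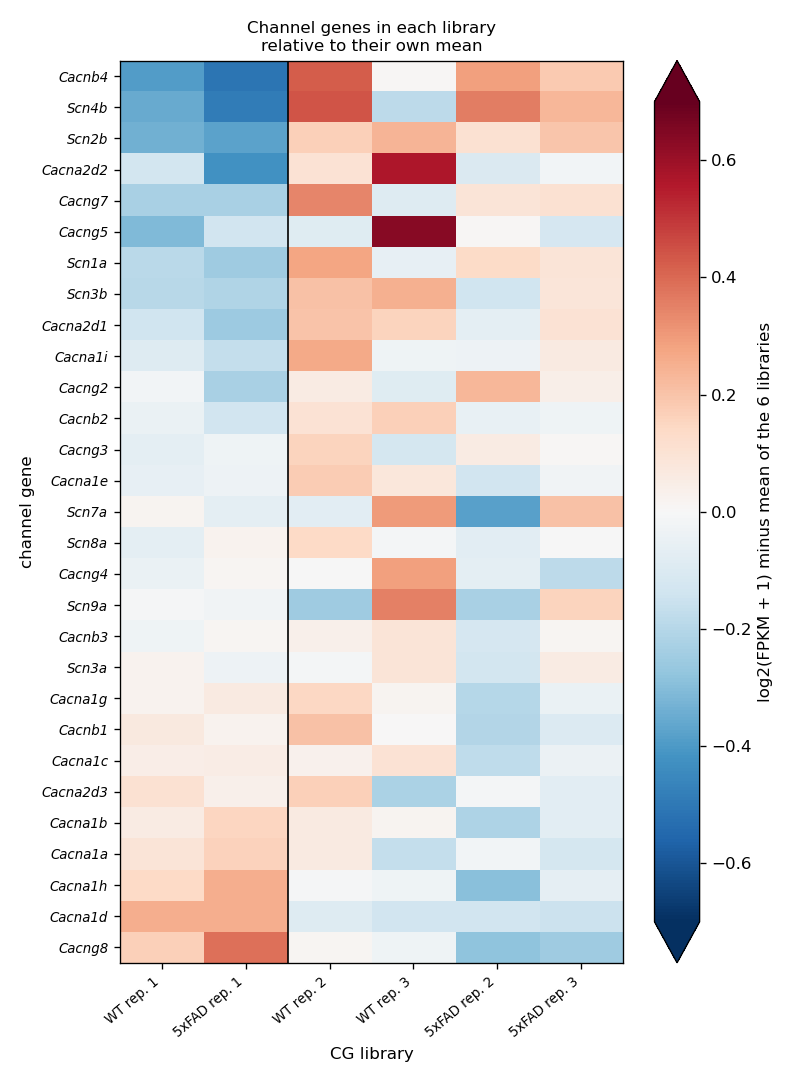
log2(FPKM + 1) of 29 tested channel genes in each CG library, minus the mean of that gene over the 6 libraries, with the libraries numbered 1 left of the line. The top rows, led by Cacnb4, Scn4b and Scn2b, are low in both libraries numbered 1, and the bottom rows, Cacna1d and Cacng8 among them, are high in both.

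Other measures moved with the replicate number. Xist, the RNA of the inactive X chromosome and chosen after its values were seen, was at 0.246 and 0.136 FPKM in the libraries numbered 1 and at 99.9 to 112 FPKM in the others. Summed markers of oligodendrocyte precursors were at 27.9 and 30.4 FPKM in the libraries numbered 1 and at 33.1 to 39.1 FPKM in the others. Of their 4 markers, 2 were below in both libraries numbered 1. Over all genes tested, 20.6% were below and 17.8% above. In other lists, 3 of 5 markers of thalamus and striatum and 2 of 6 of astrocytes were also below, and none above. Summed endothelial and mural markers were at 29.0 and 34.9 FPKM against 22.5 to 26.1 FPKM, with 4 of 7 markers above in both libraries numbered 1. Their part in the shifts of the channel genes was not tested. Markers of excitatory neurons overlapped, at 1339 and 1425 FPKM against 1335 to 1540 FPKM. Choroid plexus markers summed to 2838 FPKM in WT replicate 1, to 490 FPKM in the library labelled 5xFAD replicate 3 and to 41.5 to 72.4 FPKM in the others, so they did not follow the number.

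The promoters of the 3 genes lowest in the libraries numbered 1 and of Cacng8, the gene highest there, are shown as the ends of this range of shifts, which runs over many genes of the table. For 29 of the 39 channel genes, RefSeq's table (GRCm38.p6) held a window of 250 bases before to 50 bases after a start. Where several starts were listed, the most upstream of them was taken, and coding sequence inside a window was not looked for. CG dinucleotides are in capitals, and each window is read 5′ to 3′ along the gene. The Cacnb4 window lies at chr2:52676094-52676393 on the minus strand, and the others lie on the plus strand, at chr9:45138374-45138673 for Scn4b, chr9:45117626-45117925 for Scn2b and chr7:3393792-3394091 for Cacng8.
Cacnb4: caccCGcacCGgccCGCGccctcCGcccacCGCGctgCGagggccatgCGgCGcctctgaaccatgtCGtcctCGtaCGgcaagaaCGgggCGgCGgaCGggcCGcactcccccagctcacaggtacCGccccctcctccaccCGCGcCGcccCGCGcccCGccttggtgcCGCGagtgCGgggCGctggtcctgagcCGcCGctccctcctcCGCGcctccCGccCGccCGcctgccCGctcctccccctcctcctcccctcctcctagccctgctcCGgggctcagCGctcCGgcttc
Scn4b: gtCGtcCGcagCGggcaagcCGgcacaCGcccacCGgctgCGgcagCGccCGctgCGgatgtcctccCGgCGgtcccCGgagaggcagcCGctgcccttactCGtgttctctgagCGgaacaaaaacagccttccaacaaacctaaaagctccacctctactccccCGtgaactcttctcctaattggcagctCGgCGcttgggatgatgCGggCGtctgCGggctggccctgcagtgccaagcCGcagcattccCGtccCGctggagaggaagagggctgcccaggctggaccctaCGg
Scn2b: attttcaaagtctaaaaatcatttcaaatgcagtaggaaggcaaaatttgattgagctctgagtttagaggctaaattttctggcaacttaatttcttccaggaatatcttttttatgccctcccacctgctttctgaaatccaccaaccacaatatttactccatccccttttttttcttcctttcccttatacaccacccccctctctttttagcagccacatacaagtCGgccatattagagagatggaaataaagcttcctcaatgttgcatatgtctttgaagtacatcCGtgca
Cacng8: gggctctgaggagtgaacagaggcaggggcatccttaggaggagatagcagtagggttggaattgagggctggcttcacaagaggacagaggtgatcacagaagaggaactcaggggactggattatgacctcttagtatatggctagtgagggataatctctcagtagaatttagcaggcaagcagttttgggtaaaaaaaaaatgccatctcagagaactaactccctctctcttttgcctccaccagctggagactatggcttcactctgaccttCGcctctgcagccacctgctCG

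The 4 windows differed in CG content. Cacnb4 held 40 CG dinucleotides and Scn4b held 26, while Scn2b and Cacng8 held 2 each, so that the 3 genes low in the libraries numbered 1 did not share it. Scn2b and Scn4b are neighbours, with no coding gene between them in the RefSeq table. Of the 23 tested channel genes with a window, the median was 17 CG dinucleotides and 60.9% held at least 10, against a median of 20 and 80.2% over 10939 tested genes of the CG table. The GC box letters GGGCGG, searched on both strands, were in 47.8% of these windows and in 63.4% of those of tested genes. Such a match is a description of letters and not a binding site.

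Back-splice junctions were listed for 14 of the 24 channel genes with a mean of at least 10 FPKM (58.3%), against 30.6% of 6889 genes at that level. Cacna2d3 had 19 junctions, and 6 of the 2948 host genes, itself included, had as many or more. Cacna1c had 10, Cacna1a had 8, and Cacna1e, Cacna1b and Cacna2d1 had 6 each. Scn8a, with 4, was the only sodium channel member with any. Scn2a1, outside the rule, had 1, chr2:65526374-65528389, at 17.6, 10.3 and 6.08 in WT and at 10.4, 14.2 and 18.4 in 5xFAD, where the groups overlapped. The other 17 tested channel genes had no listed junction, among them Cacng8.

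**Figure D4:**
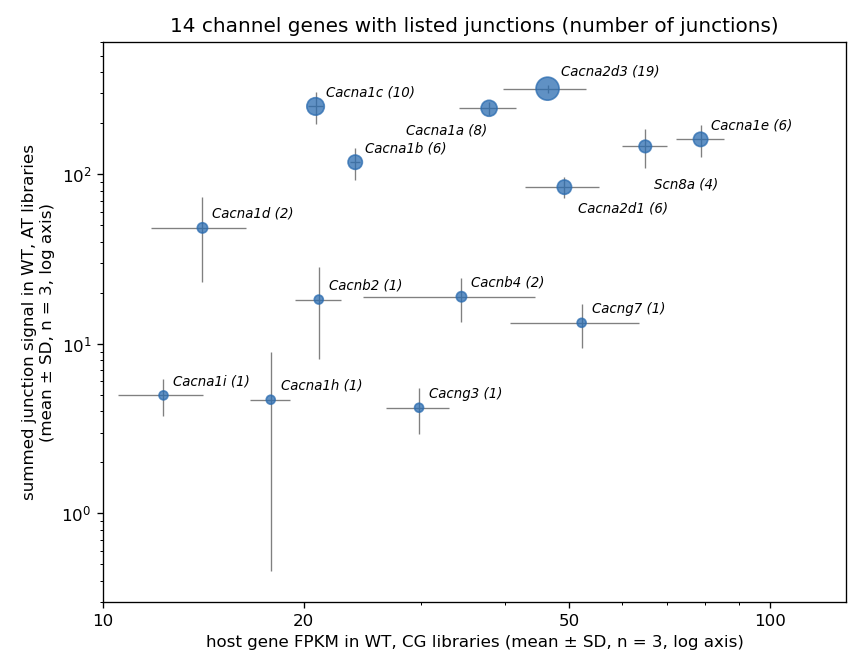
Summed junction signal in the WT AT libraries against FPKM in the WT CG libraries (both log axes, mean with bars of 1 SD, n = 3) for the 14 channel genes with listed junctions, with their number in brackets. Cacna1c and Cacna2d3 lie high for their FPKM, while Cacng7 and Cacng3 lie low.

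Signal was highest in Cacna2d3 and in calcium pores. In WT the summed signal was 320 ± 17.1 (SD, n = 3) for Cacna2d3, 251 ± 53.0 for Cacna1c and 245 ± 21.3 for Cacna1a. By the ratio of WT signal to WT FPKM, Cacna1c stood at the 94.3rd percentile of host genes, Cacna2d3 at the 88.2nd and Cacna1a at the 87.3rd. Cacng3, with a ratio of 0.141, stood at the 9.21st. The median ratio of the 14 channel hosts was 1.88, against 1.08 over 2922 hosts with at least 1 FPKM. The 2 tables come from different preparations, so the ratio ranks genes and is not a share of transcripts.

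Within most hosts 1 junction carried much of the signal. In Cacna2d3 it was chr14:29869072-29875726 (mm9, as deposited, a span of 6654 bases), at 216, 181 and 201 in WT and at 236, 133 and 149 in 5xFAD. It carried 52.1% to 65.0% of the signal of its host in the 6 libraries, and the groups overlapped. In Cacna1a it was chr8:87107457-87112758, at 186, 186 and 216 in WT and at 187, 141 and 160 in 5xFAD, or 77.4% to 82.2% of its host. In Scn8a, chr15:100832464-100841621 was at 70.7, 85.2 and 85.8 in WT and at 76.2, 77.7 and 105 in 5xFAD. These junctions stood 101st, 110th and 329th of 7025 by mean signal. Cacna1c was led by chr6:119002618-119007533, Cacna1e by chr1:156547500-156573050 and Cacna1b by chr2:24574564-24575576, with 33.7% to 54.7%, 49.6% to 81.7% and 49.6% to 81.2% of their hosts.

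The genotype comparison of the junctions gave no call by limma. None of 7025 junctions (0%) and none of the 68 channel junctions passed, with a smallest limma adjusted p among the channel junctions of 0.673. At an unadjusted p under 0.05 there were 9 of 68 channel junctions, 4 higher and 5 lower in 5xFAD, against 5.68% of all junctions. On the recovered reads, edgeR's quasi-likelihood test called none of all junctions and DESeq2 called 1 (0.0142%), which was no channel junction. At an unadjusted p under 0.05 edgeR had 6 channel junctions, against 2.88% of all, and DESeq2 had 5, against 3.35%. The authors' deposited table called 9 of the 68 channel junctions, 4 higher and 5 lower, against 264 of 7025 (3.76%). The median difference of the channel junctions was -0.21 in log2(signal + 1), against -0.06 over all junctions, with 42 of 68 lower against 54.3%. Without 5xFAD replicate 2 the median was -0.06, against -0.03 over all junctions, with 37 of 68 lower.

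A rule of the table bears on these counts. For every listed junction there was a group whose libraries all held a signal of 2.03 or more, so a junction listed through 1 group alone had to be lower in some library of the other. Of the 68 channel junctions, 38 were listed through both groups, 19 through WT alone and 11 through 5xFAD alone. Groups did not overlap in 13 of 68 (5 higher and 8 lower in 5xFAD), against 11.1% of all junctions, 4.43% higher and 6.65% lower. Of the 38 listed through both groups, 4 had no overlap, against 6.93% of all such junctions, and 2 had an unadjusted p under 0.05, against 33 of 4199 (0.786%). The other 9 of the 13 were listed through 1 group, so that their separation was in part fixed by the listing.

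The 4 junctions listed through both groups that separated lay in Cacna1e and Cacna2d3. In Cacna1e, chr1:156480754-156548510 was at 31.4, 32.6 and 31.3 in WT and at 19.1, 18.8 and 20.6 in 5xFAD, with little spread in either group. The difference was -0.68 (SE 0.38, limma adjusted p = 0.914), and the authors' deposited table gave this junction an adjusted p of 4.19e-69. A second Cacna1e junction, chr1:156480683-156482990, was at 31.1, 19.1 and 27.4 in WT and at 4.33, 15.8 and 15.8 in 5xFAD, a difference of -1.20 (SE 0.53), or -0.65 without 5xFAD replicate 1, the shallowest library. The strongest Cacna1e junction was at 116, 61.8 and 86.1 in WT and at 132, 66.2 and 73.9 in 5xFAD. Its difference was 0.02 (SE 0.36).

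Cacna2d3, the host with most channel junctions, was spread over 453 kb. Its 19 junctions used 11 lower and 10 upper ends, and 18 of them shared an end with another. In 5xFAD, 11 were higher and 8 lower, with 3 above and 3 below every WT library. The summed signal of the gene was 333, 301 and 327 in WT and 390, 255 and 275 in 5xFAD, a difference of -0.09 (SE 0.22) and the groups overlapped. The 3 junctions below every WT library were all listed through WT alone. The 2 separated junctions listed through both groups spanned 13311 and 13216 bases. The first, chr14:29756742-29770053, was at 5.61, 5.92 and 3.74 in WT and at 10.4, 12.4 and 13.9 in 5xFAD, a difference of 1.13 (SE 0.55). The second, chr14:29782343-29795559, was at 2.99, 4.33 and 3.27 in WT and at 12.1, 13.8 and 8.60 in 5xFAD, a difference of 1.45 (SE 0.58).

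**Figure D5:**
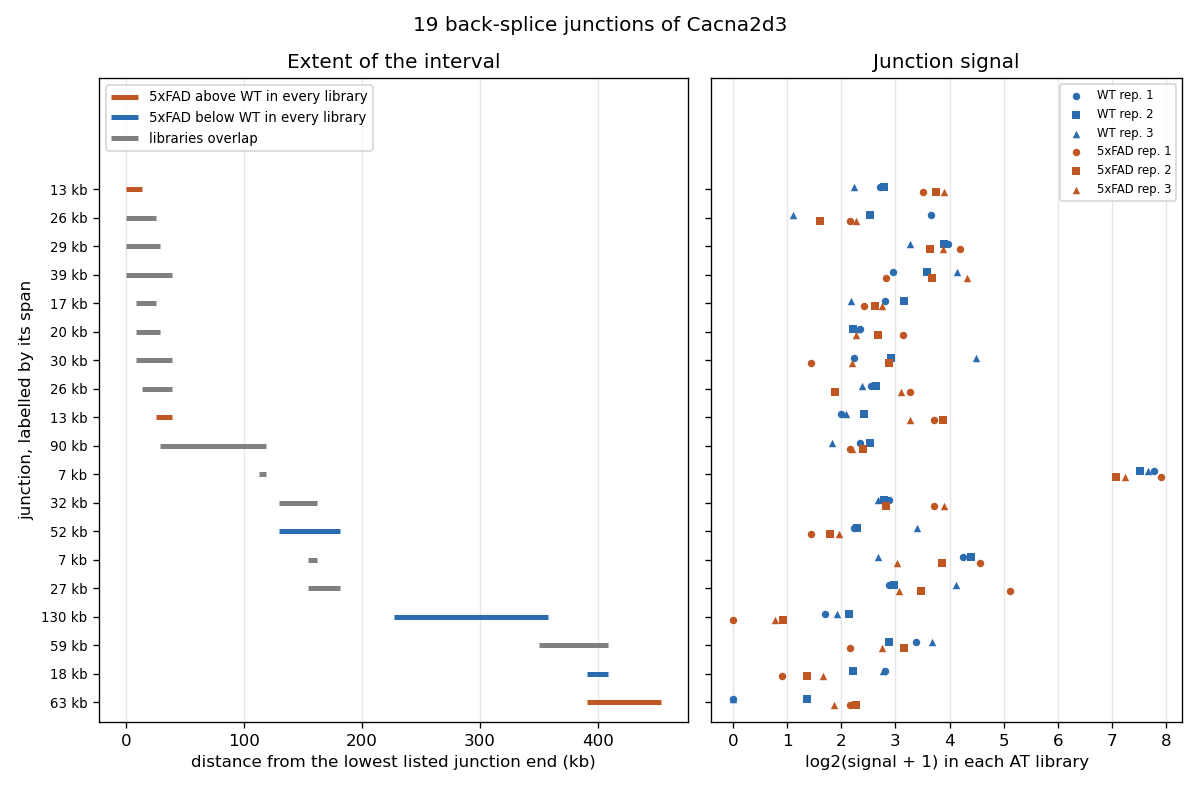
The 19 Cacna2d3 junctions as spans from the lowest listed end in kb (left) and their log2(signal + 1) in each AT library (right), ordered by lower end. Orange spans mark the 3 junctions above and blue spans the 3 below every WT library, and the junction of 6654 bases stands far above the rest.

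A pair of Cacna2d3 junctions shared their lower end and had differences of opposite sign, neither of which passed the test. The shorter, chr14:30146894-30165129, was at 5.99, 3.65 and 5.85 in WT and at 0.866, 1.58 and 2.15 in 5xFAD, from 16, 16 and 25 reads against 1, 7 and 9. The longer, chr14:30146894-30209769, was at 0, 1.60 and 0 in WT and at 3.46, 3.84 and 2.63 in 5xFAD, from 0, 7 and 0 reads against 4, 17 and 11. The differences were -1.29 (SE 0.58) and 1.64 (SE 0.54), with limma adjusted p of 0.859 and 0.716. Summed at the shared end, the signal was 5.99, 5.24 and 5.85 in WT and 4.33, 5.42 and 4.78 in 5xFAD, where the groups overlapped. Each of the pair was listed through 1 group alone, and the read numbers were small.

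Other separated junctions were of low signal. Cacna1i had a single junction, chr15:80128823-80151750, at 6.36, 4.10 and 4.44 in WT and at 0, 1.58 and 1.20 in 5xFAD, and as the sum of its host it was the only one of the 14 at an unadjusted p under 0.05 (difference -1.72, SE 0.60), against 3.56% of all hosts. The junction was listed through WT alone, so that its lower 5xFAD values were in part fixed by the listing. The CG level of Cacna1i was 11.0, 14.4 and 11.5 FPKM in WT and 10.4, 11.5 and 12.4 FPKM in 5xFAD, where the groups overlapped. In Cacna2d1, chr5:15805746-15825976 was at 7.48, 4.10 and 6.78 in WT and at 0, 0.226 and 2.39 in 5xFAD, a difference of -2.11 (SE 0.63, limma adjusted p = 0.673). In Cacna1a, chr8:86985388-87003077 was at 0, 1.14 and 0.468 in WT and at 4.33, 2.26 and 2.87 in 5xFAD, a difference of 1.47 (SE 0.52). The Cacna2d1 junction was listed through WT alone and the Cacna1a junction through 5xFAD alone. Their separation was in part fixed by the listing too. A read was worth 0.866 in 5xFAD replicate 1 and 0.226 to 0.374 in the other libraries, so a value of 0 in that library sets a coarser limit.

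Summed by host, limma called none of the 14 channel genes and none of 2948 hosts (0%). The sums were lower in 5xFAD in 13 of 14, against 56.2% of all hosts, with Cacna1h the exception, and leaving out 5xFAD replicate 2 made it 7 of 14. In CG, 12 of the same 14 genes were lower, with differences in log2(FPKM + 1) from -0.15 to 0.02. The libraries numbered 1 stood outside the other 4 in 17 of 68 channel junctions, 12 above and 5 below, against 25.1% of all junctions. In Scn8a, chr15:100766701-100767031, with the shortest span at 330 bases, was at 104 and 71.0 in those libraries and at 30.3, 22.0, 27.6 and 26.3 in the others. Its share of the Scn8a signal was 54.8% and 48.0% against 17.5% to 24.7%. In CG, the FPKM of Scn8a was 61.0 and 65.1 in the libraries numbered 1 against 60.8 to 70.7. The labels do not say whether AT and CG libraries of the same number share animals.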

How the data were processed

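Hippocampal RNA of 12 libraries (3 per group, 4 groups) was analysed from 2 tables. The authors deposited FPKM per gene for the CG libraries, but its quantifier and strand setting are not stated, so antisense reads cannot be told apart. For the AT libraries the authors deposited a signal per interval, with a log2 ratio, a p-value and an adjusted p-value, per the file headers. The build was mm9 and the tool DESeq, per the submitters' processing notes. Interval starts and ends are printed as deposited, and whether they count from 0 or 1 is not stated. Within each AT library 100% of values divided by the smallest gave whole numbers (tolerance 0.01), which were taken as reads. The authors' log2 ratio and adjusted p were checked against their own columns.

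Each table was tested with limma 3.58.1 in R 4.3.3, on log2(value + 1) with a trended variance, two-sided. Features averaging 0.5 or more entered, p-values were adjusted by Benjamini-Hochberg over all of them, and the threshold was 0.05. On this scale the change of low genes is understated. Recovered read counts, from the signal the authors deposited, were tested with edgeR 4.0.16 (quasi-likelihood, TMM) and DESeq2 1.42.0. The limma fits were tested on simulated data. Alternatives were other pseudocounts, filters and scalings, no mean trend, the replicate block, and leaving out each library. The authors' adjusted p was added as an alternative after seeing the data. Members and lists were chosen with earlier results of these data known. All genes that match the name rule may be named, with Thy1 as the label check, up to 4 genes of each companion list with the smallest p, called junctions, the 3 strongest junctions of each host and those of Cacna2d3. Other named junctions, those whose groups do not overlap, and Xist were chosen after their values were seen. The values of 2 tested channel genes are not reported here singly, and both are in the counts over all 31. Marker lists were summed as a description. RefSeq promoter windows (GRCm38.p6) were used without conversion to mm9.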

Additional observations from a re-analysis of the deposited data

How the results depend on the processing

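The count of channel genes called was 0 in CG, with 6 and with 5 libraries, and 0 for junctions and host sums under every alternative run except the authors' adjusted p, and under those alternatives the smallest adjusted p was 0.267 for a gene (Cacng6 with 5 libraries and no filter on low values) and 0.273 for a junction (chr14:30146894-30209769 in Cacna2d3 without WT replicate 2). With 6 CG libraries 1 gene was called in all, and 1 to 174 when each library was left out in turn, where 174 came without the library labelled 5xFAD replicate 3. With the 5 libraries left, leaving out 1 more gave 35 to 174 calls. DESeq2 called 1 junction and 1 host sum. The authors' deposited adjusted p called 264 junctions, 9 of them in channel genes, where limma and edgeR called 0. Of 1793 channel gene and junction values under alternatives, 73 moved by more than 1 standard error and 160 had another sign than the reported value, none of which was called. The labels do not say whether the replicate number pairs samples, and the main fits did not use it. Correlations of same-numbered libraries' deviations were 0.415, 0.279 and 0.0398 in CG and 0.0676, 0.0884 and 0.0401 in AT. In CG, WT replicate 1 had -0.344 and -0.153 with 5xFAD replicates 2 and 3. With the replicate number as a block, limma called 1 gene in CG with 6 libraries, 201 without the library labelled 5xFAD replicate 3, 0 junctions and 0 host sums, with no channel gene among them. Every WT library correlated best with its own number in CG except WT replicate 3. AT depth limits the low junctions, since 1 read in 5xFAD replicate 1 is worth a signal of 0.866.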
